A study of Rattus norvegicus with 14 samples.

Results

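Butyrate handling by the colonic epithelium was followed through 8 genes, *Slc16a1*, *Slc5a8*, *Bsg*, *Acads*, *Acat1*, *Bdh1*, *Ffar2* and *Ffar3*, out of 26276 gene names on the array. They were chosen by name as the transporters, enzymes and receptors that act on this short-chain fatty acid, and every non-control probe carrying one of the 8 names was used. All 8 names were found, each with 1 probe. Colonocytes had been detached with EDTA from the colon of male Wistar rats that ate an isocaloric normal-protein diet (NPD, 14% of energy from protein) or high-protein diet (HPD, 55%) ad libitum for 15 days, both based on whole milk protein. RNA of 7 NPD and 7 HPD rats was labelled with Cy3 and hybridised, 1 array per rat.

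Butyrate is made by colonic bacteria from carbohydrate and is a main fuel of the colonocyte. The cell takes it up with protons through MCT1 or with sodium through SMCT1, activates it to a CoA ester and burns it in the mitochondria, and part of the acetyl groups can leave as ketone bodies. Butyrate also acts as a signal, through receptors at the cell surface and by inhibiting histone deacetylases in the nucleus.

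Each gene was read by a single probe of 60 bases, so each value below is the brightness of that probe. The last 30 bases of each are shown, from 5′ to 3′ as on the array, because they are the sequence each measurement rests on. Capitals mark the letters AATAAA or ATTAAA, which are the usual signals for adding the poly(A) tail. Either motif stood on the given strand in 8.68% of the last 30 bases of the 30367 probes, and a match is a description of the letters.

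Slc16a1: ccatttttgaaatcaaatgcaaaaagttag
Slc5a8: ggtggaactgataacccggccttcaaccac
Bsg: tctacgagaagaggcggaagccggaccaga
Acads: agctgcctgtggtcAATAAAgctcacctgt
Acat1: tgtgaaagacgggctaaccgatgtctacaa
Bdh1: atttgtgggaaatacctttatATTAAAgac
Ffar2: gcacagagctctgactttgtcaccgagtga
Ffar3: gaagagccatccaaggaatgtccgagctag

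The array design places the whole probes on rat build rn4 at chr2:199879777-199879836 (plus strand) for *Slc16a1*, at chr7:25626307-25626366 (plus) for *Slc5a8* and at chr7:11508883-11508942 (minus) for *Bsg*. Those of the enzymes lie at chr12:42774463-42774522 (plus) for *Acads*, chr8:57056663-57056722 (minus) for *Acat1* and chr11:71130669-71130728 (minus) for *Bdh1*. The receptor probes lie at chr1:85878452-85878511 for *Ffar2* and chr1:85911329-85911388 for *Ffar3*, both on the minus strand and with starts 32877 bases apart. Aligned base by base without gaps, these receptor probes were identical at 19 of 60 positions. The exon or UTR that each probe lies in was not analysed here. In the design's transcripts the *Acat1* probe starts at base 517, those of *Acads* and *Bdh1* at bases 1683 and 1449.

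A level is given as log2 of the background-subtracted signal minus the median of the array's probes, and a difference as HPD minus NPD on this scale. Between 18862 and 21002 probes per array were well above background, and the median signal before centring was 149 ± 22.4 on the NPD arrays and 111 ± 13.0 on the HPD arrays (SD, n = 7). The number of arrays limits the precision. Over all probes the median difference was 0.11, which cyclic loess between arrays moved to 0.00070, so the difference of each of the 8 genes is also given relative to it. That median is a coarse reference, because the median difference varied with signal. It was 0.24 in the dimmest decile of probes and -0.04 in decile 7. Both diets were present on each of the 2 slides, which were scanned in separate runs: 4 NPD with 3 HPD arrays on slide 1, and 3 NPD with 4 HPD arrays on slide 2. A fit with slide as a block is therefore given for each of the 8 genes. RNA was taken from all detached cells of a colon, in which fewer cells of a type and less RNA per cell cannot be told apart.

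None of the 8 genes reached the threshold of a limma q-value (Benjamini-Hochberg over all probes) below 0.1, which 0.056% of all probes reached. The count stayed at 0 with slide as a block, where 0.0889% of probes were called. At an unadjusted limma p under 0.05 there was 1 gene, *Acat1*, against 11.4% of all probes. With slide as a block there were 2, *Acat1* and *Acads*, against 14.6% of all probes. The methods of the study list centring before the averaging of replicate spots, whereas spots were averaged first here. Centred on the median over spots instead, 0 of the 8 genes were called, against 0.0692% of all probes. An unadjusted limma p under 0.05 was then reached by 4 of the 8, *Slc16a1*, *Slc5a8*, *Acads* and *Acat1*, against 13.6% of all probes. Their differences with that centring were 0.31, 0.40, 0.38 and -0.40. The number of the 8 genes at this unadjusted p thus moved with the order of centring. It moved with other settings too. It was 4 with the replicate number as a block, against 21.2% of all probes. After cyclic loess with slide as a block it was 3, against 15.6% of all probes. The levels of *Slc16a1*, *Slc5a8*, *Acads*, *Bdh1* and *Ffar2* (5 genes) were nominally higher in the HPD group and those of *Bsg*, *Acat1* and *Ffar3* (3 genes) nominally lower. These directions are relative to the array median, itself lower on the HPD arrays. Before centring, the NPD and HPD median signals were 1809 and 1700 for *Slc16a1*, 1027 and 1041 for *Slc5a8*, and 53740 and 54020 for *Acads*. They were 4790 and 4746 for *Bdh1* and 453.7 and 429.8 for *Ffar2*. For the 3 lower genes they were 18600 and 11520 (*Bsg*), 2820 and 1328 (*Acat1*), and 24.8 and 15.3 (*Ffar3*). The median difference over the 8 genes was 0.20. For 0 of the 8 genes did the 7 HPD values lie wholly apart from the 7 NPD values, a separation seen in 0.273% of all probes. Within slides, *Acat1* was separated on both in the same direction, as were 1.11% of all probes, a count chosen after the values were seen.

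**Figure D1:**
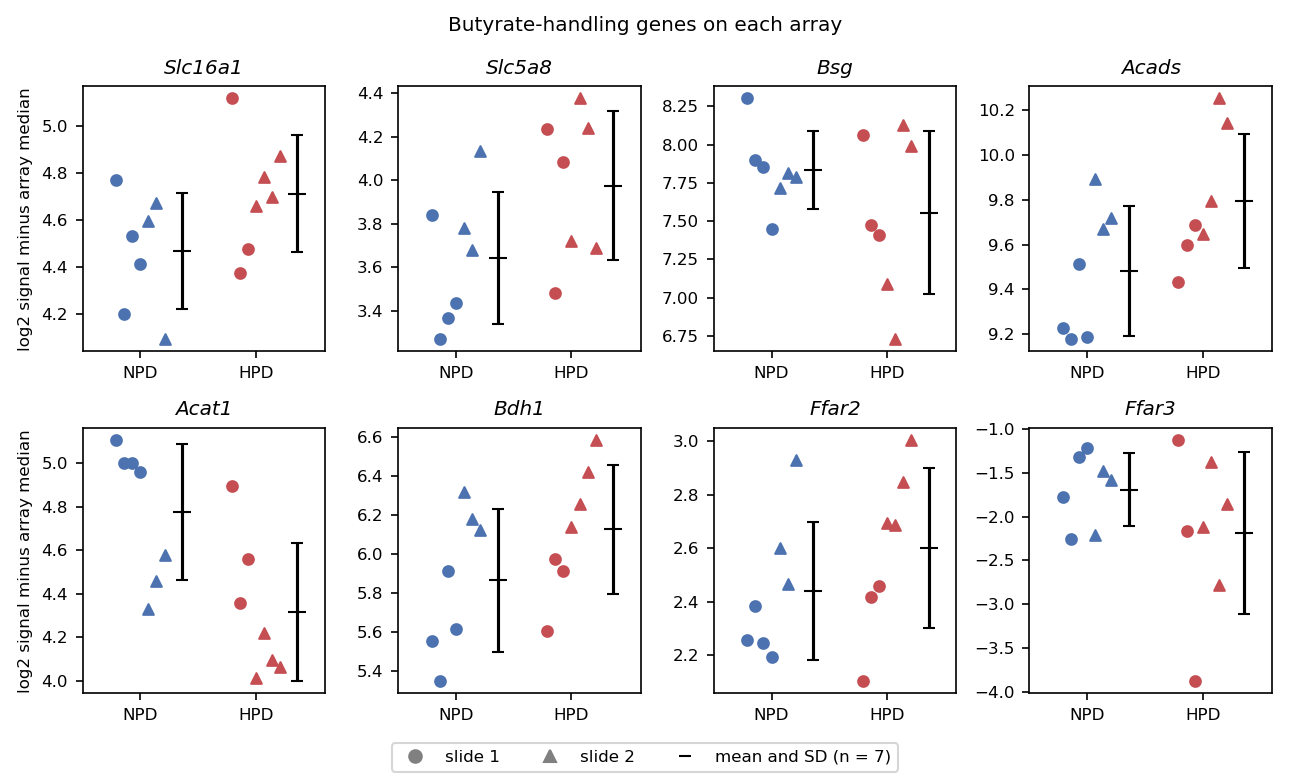
Level of each gene on each of the 14 arrays (log2 signal minus the array median), with NPD in blue, HPD in red, circles for slide 1, triangles for slide 2 and black bars for the mean and SD of 7 arrays; the y axes differ between genes. All groups overlap, and the *Acat1* values of the HPD arrays lie below those of the NPD arrays on the same slide.

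*Acat1* encodes the mitochondrial acetoacetyl-CoA thiolase, which joins or splits acetyl units in the last step of ketone body breakdown and the first of ketone body synthesis. Its level ran from 4.33 to 5.11 (median 4.96) on the NPD arrays and from 4.01 to 4.89 (median 4.22) on the HPD arrays. The groups overlapped, with 4 of 7 HPD values below all NPD values and 6 of 7 below the NPD mean. The mean was 4.78 ± 0.31 in the NPD group and 4.32 ± 0.32 in the HPD group (SD, n = 7), a difference of -0.46 with a standard error of 0.17, or a 0.726-fold level. The 95% interval ran from -0.82 to -0.10. The limma q-value was 0.417, and an exact two-sided permutation test over all splits of the arrays gave p = 0.0221. Relative to the median of all probes the difference was -0.57.

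Within each diet the *Acat1* values of the slides lay apart. On slide 1 the NPD values lay between 4.96 and 5.11 and the HPD values between 4.36 and 4.89. On slide 2 the NPD values lay between 4.33 and 4.58 and the HPD values between 4.01 and 4.22. All HPD arrays were thus below all NPD arrays of their slide. The difference was -0.41 on slide 1 and -0.36 on slide 2. With slide as a block it was -0.39 with a standard error of 0.092 (95% interval -0.58 to -0.19) and the limma q-value of 0.207 missed the threshold. Regrouping the arrays only within their slides gave an exact two-sided permutation p of 0.000816, the smallest that the 1225 regroupings can give.

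*Acat1* was also the one gene of the 8 whose call moved with the processing. It was called after normexp background correction (difference -0.58, q-value 0.0893), where 16.9% of all probes were called. It was called after normexp with slide as a block (difference -0.49, q-value 0.0247), where 27.9% were called. In the normalized table that the authors deposited it was not called (difference -0.59, q-value 0.169), where 0.0681% of 26414 rows were. Blocked by slide it was called in that table as well (difference -0.48, q-value 0.0432), where 10.5% of its rows were. Its difference was negative in all 31 fits, between -0.59 and -0.38. These fits reuse the same arrays, and some leave the difference unchanged by construction, so their number is not independent support.

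*Acads* encodes the short-chain acyl-CoA dehydrogenase, which takes the first oxidation step of butyryl-CoA. Its level ran from 9.18 to 9.89 (median 9.51) on the NPD arrays and from 9.43 to 10.26 (median 9.69) on the HPD arrays. The groups overlapped, with 6 of 7 HPD values above the NPD mean and 2 above all NPD values. The difference was 0.31 with a standard error of 0.16 (95% interval -0.03 to 0.66, limma q-value 0.453), or 0.21 relative to the median of all probes. Slide 2 read higher than slide 1 by 0.48 in the NPD group and by 0.39 in the HPD group. With slide as a block the difference was 0.25 with a standard error of 0.11 (limma q-value 0.321), and it was 0.30 on slide 1 and 0.20 on slide 2. The exact two-sided permutation p was 0.0705 over all splits and 0.0376 within slides. The probe's signal lay between 50120 and 83580 in scanner units and was marked saturated on 0 arrays. After cyclic loess the difference was 0.16, and over all 31 fits it lay between 0.11, after normexp with slide as a block, and 0.38.

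*Bdh1* encodes the mitochondrial 3-hydroxybutyrate dehydrogenase, which interconverts acetoacetate and 3-hydroxybutyrate. On the NPD arrays its level ran from 5.35 to 6.32 (median 5.92) and on the HPD arrays from 5.60 to 6.59 (median 6.14). Again 6 of 7 HPD values lay above the NPD mean and the groups overlapped. The difference of 0.26, with a standard error of 0.18, had a limma q-value of 0.515, and it was 0.16 relative to the median of all probes. With slide as a block it was 0.18 with a standard error of 0.11 (95% interval -0.05 to 0.42, q-value 0.460). The difference lay between 0.04, after normexp with slide as a block, and 0.35 over the 31 fits. The 3 enzymes therefore did not share a direction: *Acat1* was nominally lower and *Acads* and *Bdh1* nominally higher. This held in all 31 fits each, which reuse the same arrays.

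**Figure D2:**
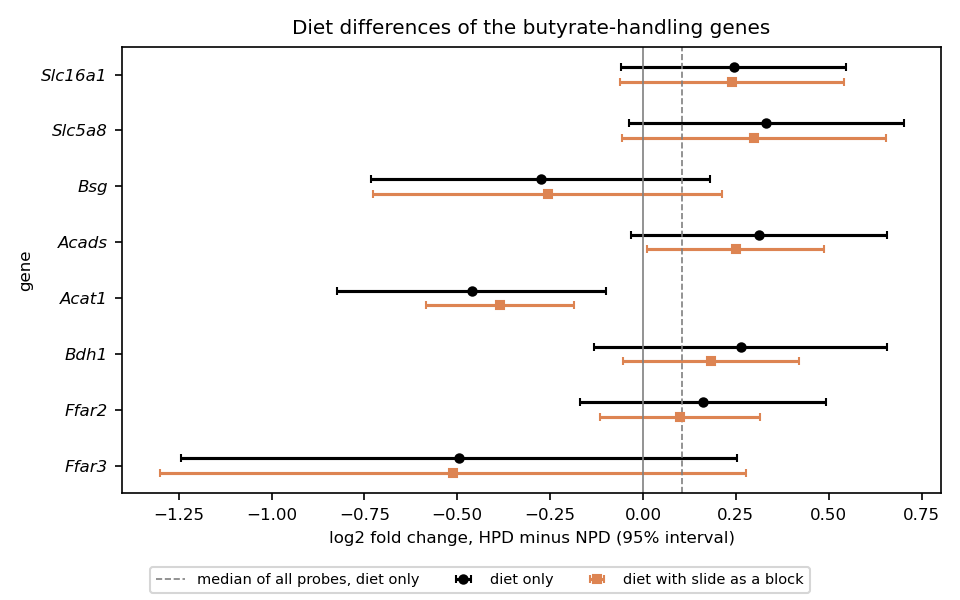
Log2 fold change (HPD minus NPD) of each gene with its 95% interval, from the fit with diet only (black circles) and with slide as a block (orange squares). *Acat1* lies below 0 in both fits, the interval of *Acads* leaves 0 only with slide as a block, and the dashed line is the median of all probes at 0.11.

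The uptake side showed small nominal differences in opposite directions. *Slc16a1* encodes MCT1, the proton-coupled carrier of butyrate, lactate and ketone bodies. Its level ran from 4.09 to 4.77 (median 4.53) on the NPD arrays and from 4.37 to 5.12 (median 4.70) on the HPD arrays. The groups overlapped, with 3 HPD values above all NPD values. The difference was 0.24 with a standard error of 0.14 (95% interval -0.06 to 0.55, limma q-value 0.485) and 0.24 with slide as a block, or 0.14 relative to the median of all probes. It lay between 0.10, in the deposited table, and 0.31 over the 31 fits. Over all splits of the arrays the exact permutation p was 0.0932.

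*Slc5a8* encodes SMCT1, the sodium-coupled carrier of the same class of substrates at the luminal membrane. Its probe had 1 spot per array, against 2 for each of the other 7 genes. On the NPD arrays its level ran from 3.27 to 4.13 (median 3.68) and on the HPD arrays from 3.48 to 4.38 (median 4.08). The groups overlapped, with 6 of 7 HPD values above the NPD mean. The difference was 0.33 with a standard error of 0.17 (95% interval -0.04 to 0.70, limma q-value 0.455). With slide as a block it was 0.30 (q-value 0.416), made up of 0.45 on slide 1 and 0.14 on slide 2. Relative to the median of all probes it was 0.23, and over the 31 fits it lay between 0.16, after normexp with slide as a block, and 0.41.

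*Bsg* encodes basigin, the membrane glycoprotein that brings MCT1 to the cell surface. Its level ran from 7.45 to 8.30 (median 7.81) on the NPD arrays and from 6.73 to 8.13 (median 7.48) on the HPD arrays. The HPD values spread more widely (SD 0.53) than the NPD values (SD 0.26), and 3 of 7 lay below and 0 above the whole NPD range. The difference was -0.28 with a standard error of 0.21 (95% interval -0.73 to 0.18, limma q-value 0.537), and -0.26 with slide as a block, or -0.38 relative to the median of all probes. Leaving out HPD replicate 5, the lowest value, took it to -0.14, and over the 31 fits it lay between -0.43 and -0.14.

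*Ffar2* and *Ffar3* encode the G protein-coupled receptors GPR43 and GPR41, which sense acetate, propionate and butyrate. The *Ffar2* level ran from 2.19 to 2.93 (median 2.39) on the NPD arrays and from 2.10 to 3.01 (median 2.69) on the HPD arrays. The groups covered nearly the same range. The difference was 0.16 with a standard error of 0.16 (95% interval -0.17 to 0.49, limma q-value 0.611), and 0.10 with slide as a block. It was 0.06 relative to the median of all probes, but 0.20 relative to that of its own signal decile and 0.18 after cyclic loess. It turned to -0.0089 after normexp with slide as a block and to -0.0046 in the normalized table of the authors with that block. It was 0.09 without HPD replicate 7, 0.25 without HPD replicate 1 and 0.24 without NPD replicate 7.

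*Ffar3* was the one gene of the 8 not well above background throughout. Its probe was well above background on 7 of 7 NPD arrays and on 4 of 7 HPD arrays. Its level ran from -2.25 to -1.22 (median -1.58) on the NPD arrays and from -3.88 to -1.13 (median -2.12) on the HPD arrays. The highest and the lowest value were both on HPD arrays. The difference was -0.49 with a standard error of 0.35 (95% interval -1.24 to 0.25, limma q-value 0.515), -0.51 with slide as a block (q-value 0.534) and -0.60 relative to the median of all probes. Without HPD replicate 3, the lowest value, it was -0.21, and after normexp it was 0.0045. It was -0.03 from the mean pixel signal, -0.02 from the median pixel signal and -0.06 in the deposited table.

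For *Acads*, *Acat1*, *Bdh1* and *Ffar2* the slides differed by more than the diets did. In the fit of diet and slide, slide 2 read higher than slide 1 by 0.44 for *Acads* (q-value 0.00951), 0.56 for *Bdh1* (q-value 0.00273) and 0.44 for *Ffar2* (q-value 0.00559). For *Acat1* slide 2 minus slide 1 was -0.53 (q-value 0.00158). The other 4 genes had slide q-values between 0.304 and 0.864. Over the array 12164 of 30367 probes passed the same threshold for slide.

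**Figure D3:**
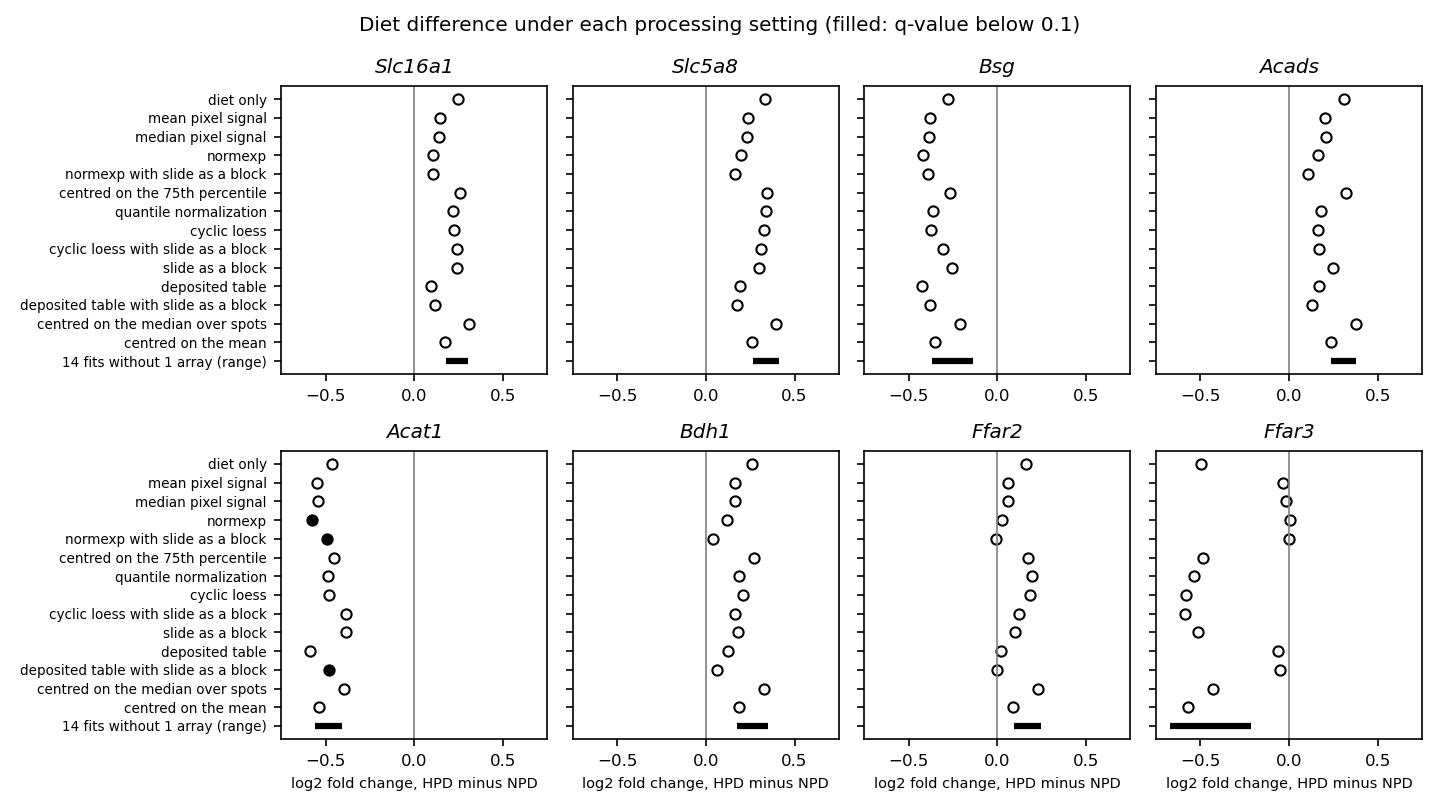
Log2 fold change (HPD minus NPD) of each gene under the processing settings, with filled circles for a q-value below 0.1 and a bar for the range over the 14 fits that leave out 1 array. Not drawn are the replicate block, eBayes with a trend and only probes well above background, whose differences equal those of the diet-only fit. *Acat1* holds the 3 filled circles, and *Ffar2* and *Ffar3* come to lie near 0 under normexp and in the deposited table.

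How the genes varied together from array to array (1 rat each) was examined in the 7 genes well above background on all arrays, after removing the fitted diet and slide means. Of the 21 pairs, 13 had a positive correlation. *Acads* and *Bdh1* deviated together most closely, with Pearson's r of 0.82 (permutation p = 0.00029, adjusted 0.00609 over 21 pairs) and Spearman's rho of 0.88 (permutation p = 0.00006, adjusted 0.00126). Without the 2 arrays farthest out in *Acads*, r was 0.88, and it was 0.94 before the diet and slide means were removed. *Slc5a8* and *Acat1* had an r of 0.71 (permutation p = 0.00289, adjusted 0.0303) and a rho of 0.71 (permutation p = 0.00601, adjusted 0.0631), and an r of 0.58 without the 2 farthest arrays. Before the diet and slide means were removed, that r was -0.34, of the opposite sign. *Slc16a1* and *Ffar2* ran opposite, with an r of -0.65 (permutation p = 0.0119, adjusted 0.0834) and a rho of -0.58 (permutation p = 0.0315, adjusted 0.220), but r was -0.37 without the 2 farthest arrays and so rested on them, and -0.11 before the means were removed. The points share an array and its centring, the permutations take the residuals as exchangeable, and the other 18 pairs had an adjusted p of 0.265 or more. These correlations are for median-centred values only. In the fits with slide as a block, cyclic loess lowered the standard error of the diet difference from 0.111 to 0.059 for *Acads*. For *Bdh1* it went from 0.110 to 0.067. The part of array-wide, signal-dependent variation in these correlations was not tested.

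**Figure D4:**
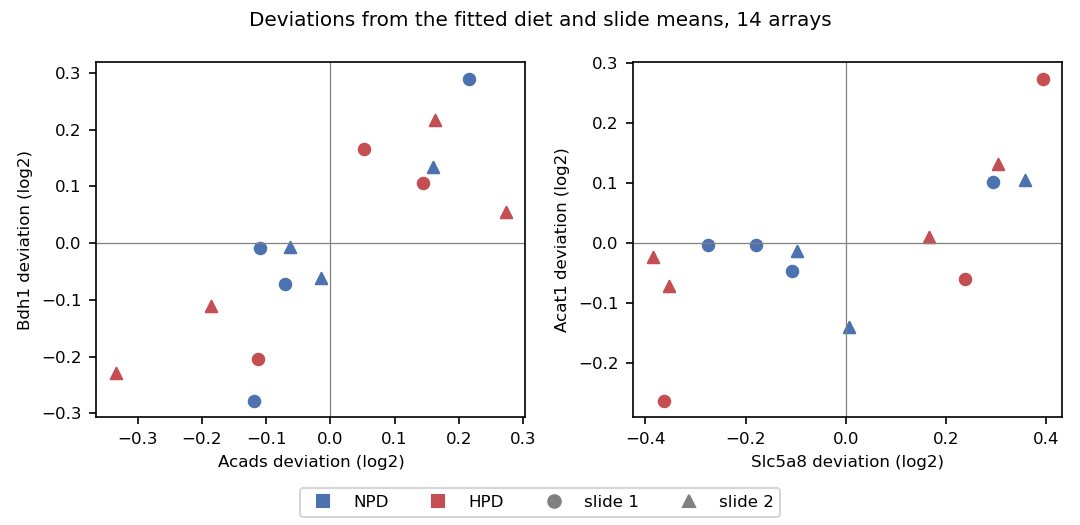
Deviation of each array from the fitted diet and slide means, in log2 units, for *Acads* against *Bdh1* (left) and *Slc5a8* against *Acat1* (right), with NPD in blue, HPD in red, circles for slide 1 and triangles for slide 2. In both plots arrays with a higher deviation in one gene tend to have a higher one in the other, with r of 0.82 and 0.71.

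For each of these 7 genes, the genes with the most similar deviations were sought among 9405 gene symbols well above background on all 14 arrays. These are the highest of many correlations and carry no test. For *Acads* they were *Tmem141* (r = 0.97) and *Ctsd* (r = 0.95), and for *Bdh1* *Ebp* (r = 0.97) and *Mtx1* (r = 0.96). *Acat1* was most like *Txndc12* (r = 0.91) and *Fgfr1op2* (r = 0.91). *Ffar2* was most like *Aldh3a2* (r = 0.94) and *Eci2* (r = 0.88). For *Slc16a1* they were *Usp12* (r = 0.89) and *Mier3* (r = 0.88), for *Slc5a8* *Muc1* (r = 0.90) and *Stk35* (r = 0.87), and for *Bsg* *Pycard* (r = 0.96) and *Tcf3* (r = 0.90). Before the diet and slide means were removed, r was only 0.36 for *Muc1*, 0.37 for *Stk35* and 0.31 for *Tcf3*. For the other genes named here it was then between 0.75 and 0.99.

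The wider pathway was read from 6 lists with 44 genes, all on the array, some under older symbols. At a limma q-value below 0.1, 0 of the 44 were called, and 0 with slide as a block. At an unadjusted limma p under 0.05 there were 5 of 44 (3 higher, 2 lower), next to 11.4% of all probes. With slide as a block there were 7 of 44 (4 lower), next to 14.6%. The median difference over the 44 was 0.12, against 0.11 over all probes. Probes of 7 of the 44 genes were well above background on 0 arrays.

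Around β-oxidation and electron transfer, 1 of 10 genes was higher and 1 lower at an unadjusted p under 0.05. *Acaa2*, a mitochondrial thiolase of fatty acid oxidation, had a level of 7.03 ± 0.46 on the NPD and 6.56 ± 0.27 on the HPD arrays (SD, n = 7), a difference of -0.47 (limma q-value 0.418). *Etfdh*, which passes electrons from acyl-CoA dehydrogenases to ubiquinone, had levels of 4.38 ± 0.11 and 4.68 ± 0.17, a difference of 0.31 (limma q-value 0.417). The brightest gene of the list, *Hadh*, which oxidises short-chain hydroxyacyl-CoA, differed by 0.11 (q-value 0.720). The median over the list was 0.04, and -0.04 after cyclic loess.

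Among the other ketone body enzymes 0 of 6 passed an unadjusted p under 0.05. *Oxct1*, which activates acetoacetate for use as fuel, differed by 0.12 (limma q-value 0.815). The brightest of the list was *Acat2*, the cytosolic thiolase, here under its older name *Acat3*. Its difference was 0.32 (q-value 0.504) at the brighter of its 2 probes, and -0.01 in the deposited table blocked by slide. *Oxct1* is named beyond the naming rule, after its value was seen.

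Of the genes that activate fatty acids to CoA esters, 0 of 10 passed an unadjusted p under 0.05, and the brightest, the mitochondrial acetyl-CoA synthetase *Acss1*, differed by 0.11 (q-value 0.731). The 8 other carriers and partners all had nominally higher values, with a median difference of 0.25 that was 0.25 after cyclic loess, where 1 of the 8 was lower. Of all probes, 64.2% were nominally higher in the HPD group. The probes of *Slc16a4* and *Slc5a12* (2 of the 8) were well above background on 0 arrays. One of these, *Slc16a4*, passed an unadjusted p under 0.05, and no fold is given for it. The brightest, the chloride-bicarbonate exchanger *Slc26a3*, differed by 0.33 (limma q-value 0.438).

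Among other sensors and deacetylases 2 of 6 passed an unadjusted p under 0.05, in opposite directions. *Hcar2*, the receptor of butyrate and 3-hydroxybutyrate listed on the array as *Niacr1*, had levels of 1.76 ± 0.11 on the NPD and 1.99 ± 0.19 on the HPD arrays, a difference of 0.23 (limma q-value 0.434). *Hdac3*, a histone deacetylase inhibited by butyrate, had levels of 2.05 ± 0.46 and 1.32 ± 0.75, a difference of -0.73 (limma q-value 0.418), and -0.59 with slide as a block. The brightest, *Hdac1*, differed by 0.40 (q-value 0.515) at the brightest of its 3 probes. In the deposited table blocked by slide its difference was -0.19, of the opposite sign. Of the 4 transcriptional regulators 0 passed, and the brightest, *Pparg*, differed by 0.25 (q-value 0.515).

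**Figure D5:**
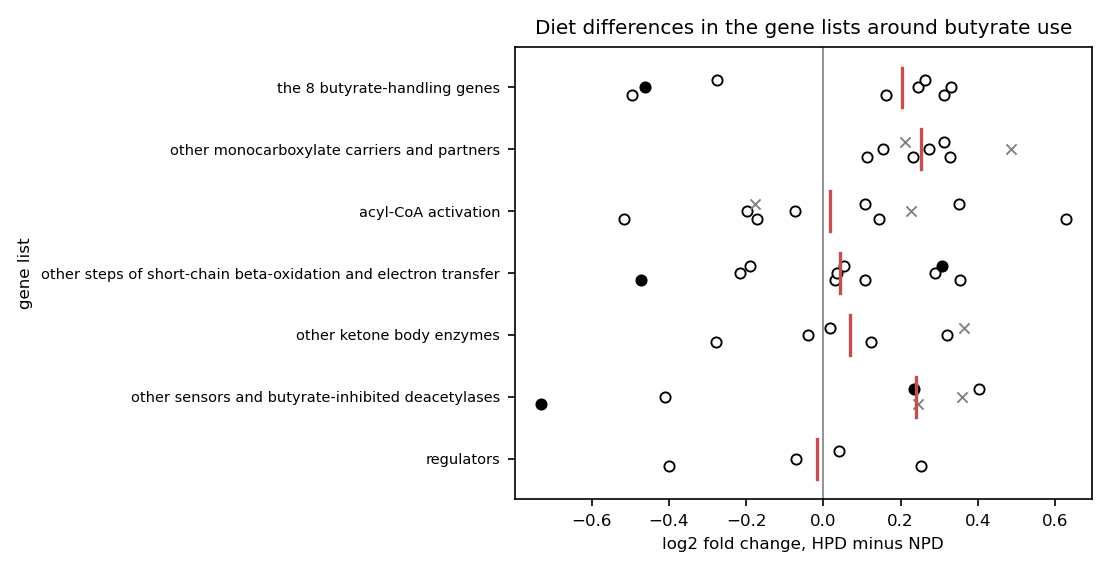
Log2 fold change (HPD minus NPD) of the 8 genes and of the 44 genes in 6 lists around them, with filled circles for an unadjusted limma p under 0.05, crosses for probes well above background on 0 arrays and a red line for the median of each list. Filled circles lie on both sides of 0.

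The cell type label was read against 7 marker lists, in which 0 genes were called by the diet-only fit and 0 with slide as a block. After normexp, where 16.9% of all probes were called, 3 of 7 goblet cell and 1 of 6 stem and cycling cell markers were called. So were 2 of 8 stromal and muscle cell markers and 1 of 8 absorptive markers, and 0 of the other 3 lists. The absorptive one was *Ceacam1*, well above background on 1 NPD and 3 HPD arrays. Of the stromal ones *Col3a1* was well above background on 0 NPD arrays and 1 HPD array. In the deposited table blocked by slide, 2 goblet cell and 1 stem and cycling cell marker were called, next to 10.5% of its rows. Of the 8 absorptive colonocyte markers, 7 passed background on every array of a diet, and their summed linear level relative to the array median ranged from 5510 to 7687 on the NPD arrays and from 5968 to 10130 on the HPD arrays. By direction, 7 of the 8 were nominally higher in the HPD group, next to 64.2% of all probes, with a median difference of 0.21. After cyclic loess 3 of the 8 were lower and the median was 0.06. The 7 goblet cell markers summed to between 4758 and 7466 and between 3491 and 10790, and 5 of 7 were nominally lower in the HPD group (6 after cyclic loess), *Agr2* by a difference of -0.63 and *Clca1* of -0.56, while *Spink4* differed by 1.82. Sums of the 8 immune cell markers were between 8.31 and 18.6 and between 8.96 and 13.7, and those of the 8 stromal and muscle cell markers between 13.9 and 28.9 and between 11.9 and 22.9. Of the 8 immune cell markers, 3 passed background on every array of a diet, and 4 were nominally higher and 4 lower. The enteroendocrine sums were between 555.8 and 1150 and between 409.8 and 1355, and those of stem and cycling cells between 67.2 and 112.1 and between 59.7 and 105. The red blood cell markers summed to between 37.8 and 66.9 and between 46.3 and 172.3. Of the stem and cycling cell markers 3 were nominally higher and 3 lower. Among them *Top2a*, a marker of cycling cells, differed by -0.68 and *Pcna*, another such marker, by 0.07. The alpha globin *Hba1*, listed on the array as *Hba-a2*, differed by 0.52. The part of cell makeup in the differences of the 8 genes was not tested.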

How the data were processed

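Colonocyte RNA of 7 NPD and 7 HPD rats was measured on 1-colour Agilent arrays. Scanner files made with Feature Extraction 10.7.3.1 (per the submitters' processing notes) were deposited for every array and give linear spot intensities. A further deposited table has normalized log2 values by gene name. It had 0 columns of other samples. Samples that the authors removed as outliers were not analysed here.

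Spots that were controls or carried an outlier mark were not used. The net intensity (after the scanner software subtracted background) was log2-transformed, spots of a probe were averaged, and each array was centred on the median over its 30367 probes. The study's methods name log2, then array-wise centring, then averaged replicate spots, and limma, without naming the centring statistic. Averaging first therefore departs from their order. An earlier analysis of these data was followed here, after the number of called probes had been compared between several ways of centring and before values of the 8 genes were read. Centring on the median over spots (the order in the methods) or on the mean over probes was added as an alternative after seeing the data.

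The diet effect came from limma 3.58.1 (R 4.3.3; lmFit, then eBayes) with no other term and a q-value below 0.1, with data.table (version 1.17.8) and jsonlite 2.0.0 for reading. Exact two-sided permutation tests used 1716 splits or 1225 regroupings within slides, and correlations used 100000 permutations. Normexp used an offset of 50.

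The 8 genes, the lists and the naming rule were chosen with earlier results of these data known. Named were the 8 genes, list genes with an unadjusted p under 0.05, the brightest gene of each list, and for each of the 8 genes well above background on all arrays the 2 genes most like it. The brightest probe stood for a gene. Some results are not reported here.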

Additional observations from a re-analysis of the deposited data

Results flagged for a closer look

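The highest and the lowest value of each gene in each diet were compared with their neighbours by Dixon's ratio at its 95% critical value for 7 arrays. Of 16 groups, 0 exceeded it.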

How the results depend on the processing

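The number of probes called at a q-value below 0.1 was 17. It was 27 with slide as a block, 40 after cyclic loess with slide as a block, 5142 after normexp, 8479 after normexp with slide as a block and 2767 in the deposited table when slide was a block, and between 9 and 151 when 1 array was left out, with 151 without HPD replicate 1. Calls among the 8 genes went from 0 to 1 (*Acat1*) after normexp, after normexp with slide as a block and in the deposited table blocked by slide. Under these the *Acat1* difference was -0.58, -0.49 and -0.48. Calls among the 44 pathway genes went from 0 to 5, 11 and 6. In the same settings 16.9% and 27.9% of all probes and 10.5% of the rows of the deposited table were called. The calls after normexp included *Acsm2* and *Hdac2*, whose probes were well above background on 0 arrays, with differences of 0.19 and 0.20. The others were *Acsf3*, *Acaa2* and *Hdac3*, well above background on all arrays, with differences of -0.325, -0.62 and -0.61. Those in the deposited table blocked by slide were the same 5 genes, in the same directions, and *Bdh2*, whose probe was well above background on 0 arrays. The *Ffar3* difference turned to 0.0045 after normexp, and that of *Ffar2* to -0.0089 after normexp with slide as a block and to -0.0046 in the deposited table blocked by slide. Without 1 array, the number of the 8 genes called was 0 in all 14 fits, with *Acat1* q-values between 0.121 and 0.627. The cause of these shifts was not tested. With the replicate number as a block (replicate block), 8 probes were called and the other calls stayed at 0. Same-numbered arrays of the diets correlated in their deviations between -0.09 and 0.39 over 7 pairs, so the numbers were not used as pairs. The best partner of the other diet had the same number for 1 of 7 NPD arrays. Centring on the median over spots or on the mean, both chosen after seeing the data, gave 21 and 18 called probes and left all 8 genes uncalled with their directions, but over spots 4 of the 8 reached an unadjusted p under 0.05 instead of 1. Each of the 8 genes has 1 probe, so the choice of probe could not change them. With 7 arrays a group, a q-value above the threshold does not show equal levels.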
